A study of Homo sapiens with 6 samples.

Results

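The genes described here encode the nuclear subunits of respiratory complexes II, III, IV and V and the electron carrier cytochrome c. They were the rows of the deposited expression table that mapped to protein-coding genes with the symbols *CYC1*, *CYCS* or *SDHA* to *SDHD*, or with symbols starting with UQCR, COX4 to COX8 or ATP5. The rule used names only and found 49 of the 29483 genes in the table, of which 4 belonged to complex II, 10 to complex III, 15 to complex IV and 19 to complex V, with cytochrome c as the single carrier.

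RNA was sequenced from HK-2 cells, an immortalized epithelial line from the human renal proximal tubule. All 6 libraries came from cells kept in high glucose (HG) medium of 25 mM for 7 days and then for 1 day more in the same medium. On that last day the case group (HGTEPP1 to HGTEPP3) also received 10 μM TEPP-46, a small-molecule activator of the pyruvate kinase isoform PKM2, and the control group (HG1 to HG3) did not. No normal-glucose group was analysed here, so each value below compares TEPP-46 with no TEPP-46 within high glucose. Expression was given as FPKM (fragments normalized to exon length and library size), and the reads behind it numbered 17378710 to 18634891 in the control libraries and 15363254 to 16711934 in the case libraries, so that every case library was shallower than every control library. Each group was 1 line with 3 libraries, and the p-values measure the spread between these libraries.

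The epithelial label held: keratin genes were abundant, with *KRT8* at 344 ± 10.8 FPKM and *KRT19* at 352 ± 6.50 FPKM in the control group (SD, n = 3). The 8 proximal tubule markers measured, among them the endocytic receptor genes *LRP2* and *CUBN*, summed to 0.499 to 0.512 FPKM in the control libraries and 0.238 to 0.371 FPKM in the case libraries, with *GGT1* the most abundant. None of the 8 reached a mean of 0.5 FPKM, so the transporters and receptors of the native tubule were not seen at appreciable levels. Fibroblast and endothelial markers were likewise near 0. Of the 5 epithelial markers, 1 was downregulated, beside 5.84% of all tested genes. This was *CDH1* (E-cadherin), from 3.42 ± 0.0811 to 2.05 ± 0.248 FPKM (log2(FC) -0.64, adjusted p 0.0156, limma). *KRT8* fell to 271 ± 28.5 FPKM, lower in every case library, but did not pass (log2(FC) -0.27, adjusted p 0.125, limma). *KRT18*, *KRT19* and *EPCAM* had log2(FC) values of 0.02, 0.02 and 0.04. Of 2 leukocyte markers *CD14* was downregulated, from 0.806 ± 0.161 to 0.264 ± 0.0290 FPKM (log2(FC) -1.24, adjusted p 0.0384, limma), beside the same 5.84%. It rested on 7 to 31 reads, and its group mean was above the testing minimum in the control group only. *CD68* was at or near 0. The part of these differences in the values below was not tested.

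In the inner mitochondrial membrane, complex II passes electrons from succinate to ubiquinone, complex III passes them on to cytochrome c, and complex IV hands them to oxygen. Complexes III and IV pump protons on the way, and complex V, the ATP synthase, lets the protons back through a rotating ring of c subunits to make ATP. All complex II subunits are nuclear, whereas complexes III, IV and V each combine nuclear subunits with subunits made from mitochondrial DNA, and proximal tubule cells in the kidney rely heavily on this system for the energy of reabsorption.

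Many such genes carry short promoter elements for the transcription factors NRF1 and GABP. The promoter windows of RefSeq (GRCh38.p14), which span 250 bases before to 50 bases after a start site, covered 37 of the 49 genes with 43 windows. The palindromic core of the NRF1 element, TGCGCA, was present in 11 of the 43 windows (25.6%), against 8.24% of all 35116 windows and 12.4% of the windows of tested genes. The GABP-type element CCGGAAG, searched on both strands as CCGGAAG or CTTCCGG, was present in 17 of the 43 (39.5%), against 10.3% of all windows and 17.7% of those of tested genes. A match describes the letters in the window only. The sequences below show the element in capitals within 24 bases, read 5′ to 3′ on the strand of the gene. They were chosen because they belong to genes on which the results turn: the complex II genes, whose log2 fold changes had both signs, and the complex V genes that passed the test. *UQCRFS1* of complex III, which also passed, is not shown. Either element was present in 4 of the 7 windows of upregulated subunit genes (57.1%), against 51.2% of the 43.
SDHD, 111 bases before the start, chr11:112086753-112086776, plus strand: agctgtgttTGCGCAtgcgcgacg
SDHD, 77 bases before the start, chr11:112086787-112086810, plus strand: gcctctcgaCTTCCGGttcaccca
SDHA, 167 bases before the start, chr5:218144-218167, plus strand: ggtccgcttTGCGCAggcgcggcg
SDHA, 118 bases before the start, chr5:218193-218216, plus strand: gtggcatggTGCGCAggcgcgatg
SDHA, 69 bases before the start, chr5:218242-218265, plus strand: ccggcgtggTGCGCAggcgcggta
SDHA, 20 bases before the start, chr5:218291-218314, plus strand: ccggtgtggTGCGCAggcgcagtc
SDHB, 178 bases before the start, chr1:17054196-17054219, minus strand: ctgcgctatTGCGCAcgctcgctg
SDHB, 128 bases before the start, chr1:17054146-17054169, minus strand: cccgggaaaCCGGAAGccgcctcc
ATP5MC2, 59 bases before the start, chr12:53676375-53676398, minus strand: tgtgacgacTGCGCAtgctcggaa
ATP5PF, 30 bases before the nearer of its start sites, chr21:25735070-25735093, minus strand: ccaggggacCCGGAAGcacttacc

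Most of the subunit genes were well expressed. *ATP5F1B*, the catalytic beta subunit of ATP synthase, was the most abundant at 841 ± 49.2 FPKM in the control group and 839 ± 5.14 FPKM in the case group (SD, n = 3 each). By the mean over all 6 libraries, the leading genes of the other complexes were *CYC1* (cytochrome c1 of complex III) at 213 ± 15.5 and 213 ± 27.6 FPKM, *COX6B1* of complex IV at 155 ± 7.40 and 184 ± 24.7 FPKM, and *SDHB* (the iron-sulfur subunit of complex II) at 42.5 ± 0.938 and 49.3 ± 5.29 FPKM. Summed over the 49 genes, the level was 3317 ± 38.5 FPKM in the control group and 3583 ± 199 FPKM in the case group. The sum of case replicate 2, 3353 FPKM, lay just above the highest control sum of 3345 FPKM, whereas case replicates 1 and 3 reached 3705 and 3690 FPKM.

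**Figure D1:**
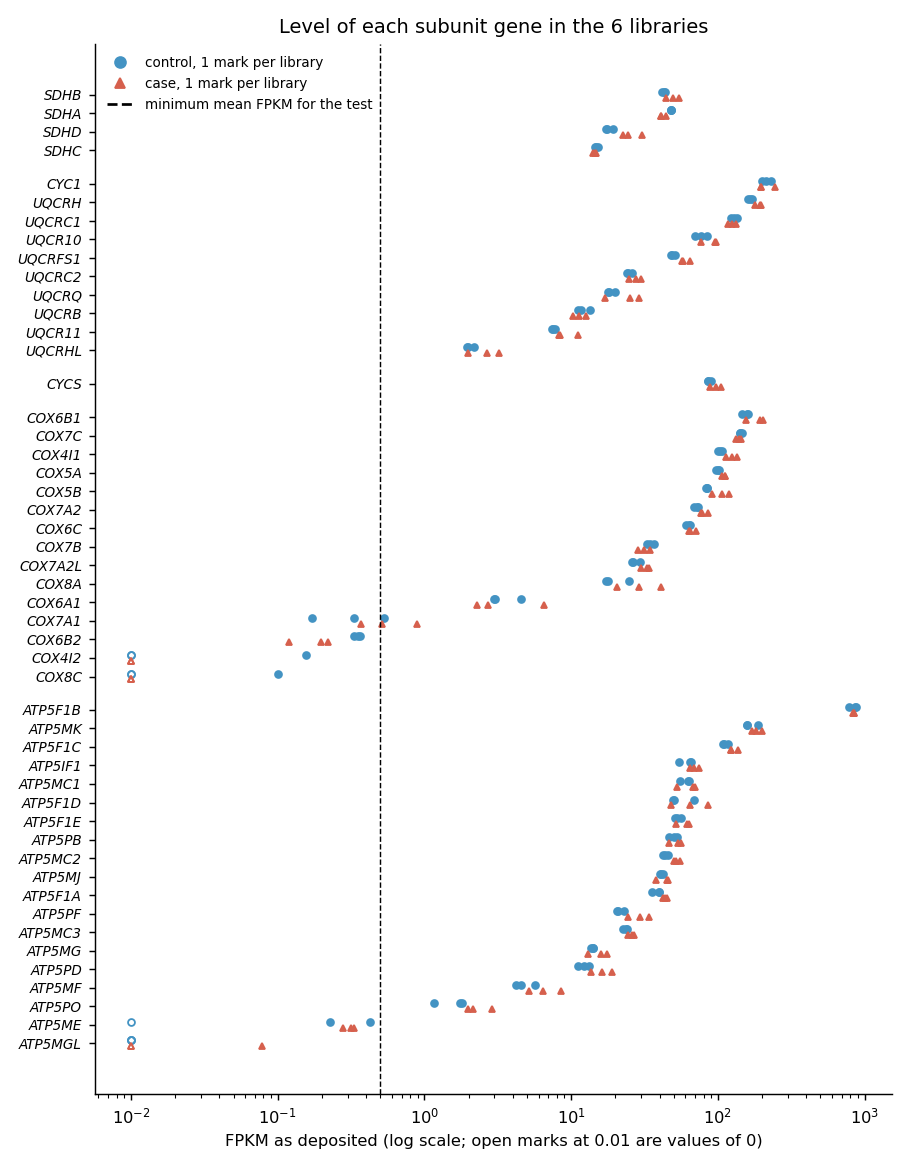
FPKM (log axis) of each of the 49 subunit genes, grouped by complex and ordered by mean, with 1 circle per control library, 1 triangle per case library, and the testing minimum of 0.5 FPKM as a dashed line. Levels run from 0 to 875 FPKM, and the 6 genes left of the line were not tested.

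The comparison of the case with the control group asked whether these genes changed with the PKM2 activator. On log2(FPKM + 0.1) after scaling of the libraries, 4 of the 43 tested genes were upregulated at an adjusted p of at most 0.05 (limma, Benjamini-Hochberg over all 13599 tested genes), and none was downregulated. These were *SDHD* of complex II, *UQCRFS1* of complex III, and *ATP5MC2* and *ATP5PF* of complex V. That share of 9.30% stood beside 7.34% of all tested genes upregulated, and the 0 of 43 stood beside 5.84% downregulated, so the count of upregulated genes was near the background. At an unadjusted p under 0.05, 22 of the 43 were higher against 16.8% of all tested genes, and 0 were lower against 16.2%. With limma-voom on the recovered reads, 9 were upregulated, against 9.38% of all tested genes, and 0 downregulated, against 10.9%.

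The positions of the single genes leaned one way more than the calls did. The log2(FC), case minus control, was above 0 for 40 of the 43 genes, with a median of 0.24, and for 34 of them unscaled, 30 with values rescaled to a constant total (TPM) and 32 with quantile normalization. The median over all tested genes was -0.00, and 6769 of the 13599 were above 0. In 22 of the 43 genes all case libraries lay above all control libraries after scaling, against 19.5% of all tested genes, and in none did they lie below, against 20.4%. In a bulk library, a change in the make-up of the cells and a change in RNA per cell cannot be told apart. The median depended on the scale, since FPKM totals were 289245 to 295418 in the control libraries and 310111 to 323755 in the case libraries: with TPM scaling it was 0.041, beside -0.19 for all tested genes, which left a difference of 0.24 between them. With quantile normalization it was 0.11, and the difference from all tested genes was 0.12.

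**Figure D2:**
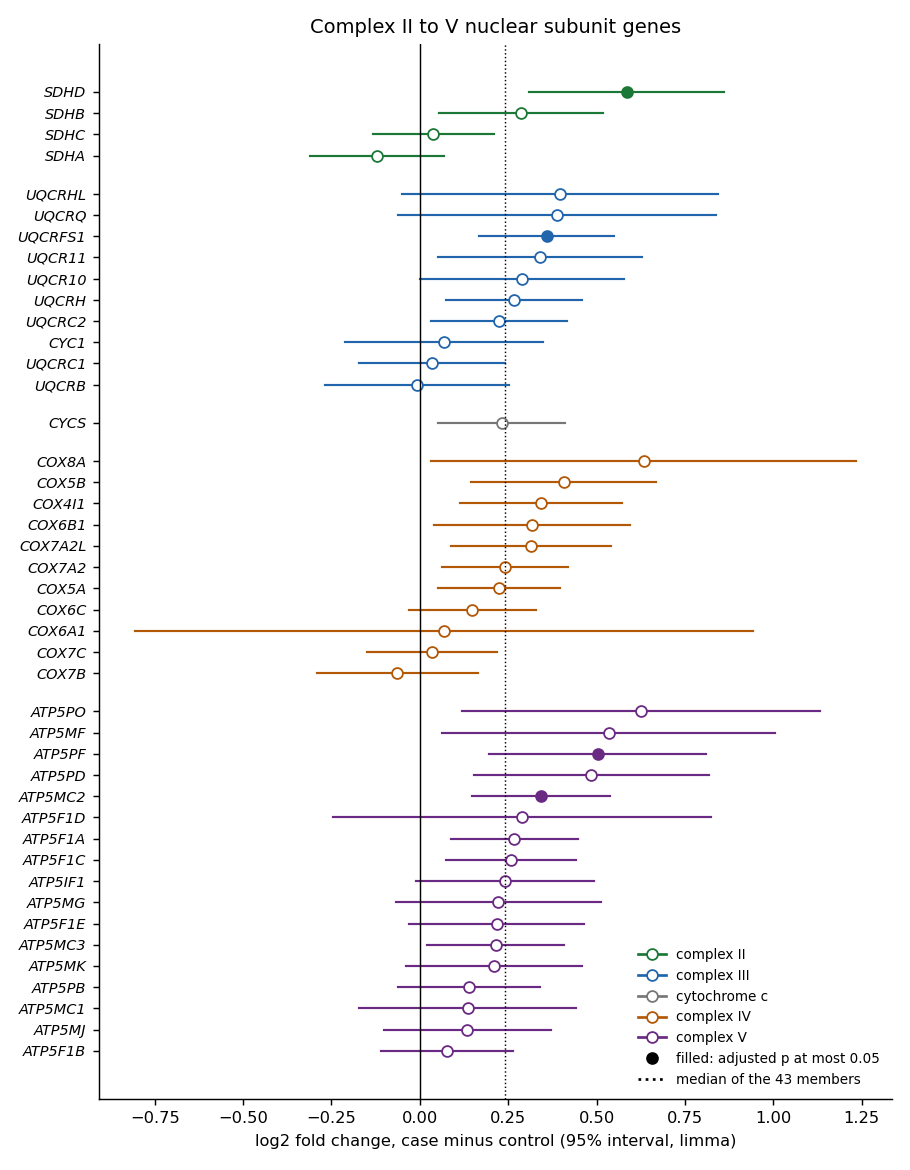
Log2(FC), case minus control, of the 43 tested genes with 95% intervals from limma, grouped by complex; filled points passed an adjusted p of 0.05 and the dotted line is the median of the 43. The 4 filled points are *SDHD*, *UQCRFS1*, *ATP5PF* and *ATP5MC2*, and 40 points lie above 0, which with TPM scaling becomes 30.

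The 4 complex II genes ranged in log2(FC) from -0.12 to 0.58. *SDHD*, which encodes the small membrane anchor subunit that helps to bind ubiquinone (ENSG00000204370, chr11:112086824-112120016 in GENCODE v44 on GRCh38, plus strand), measured 17.5, 19.3 and 17.3 FPKM in the control libraries and 24.5, 22.7 and 30.2 FPKM in the case libraries. Every case value was above every control value, and case replicate 3 was the highest. Its log2(FC) of 0.58 ± 0.12 (SE) had an adjusted p of 0.0233 (limma) and rested on 754 to 1166 reads per library. Of its canonical transcript, 23.8% is shared with ENSG00000255292 on the same strand. The increase passed in 13 of 16 other settings, TPM and quantile scaling among them, but not without any 1 of the control libraries (adjusted p 0.0853 to 0.0957) or without case replicate 3 (0.0665).

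*SDHA*, the flavoprotein that oxidizes succinate, stood on the other side. It measured 48.3, 48.0 and 47.7 FPKM in the control libraries and 44.3, 40.7 and 40.7 FPKM in the case libraries. As deposited, the case values were all below the control values. After scaling the groups overlapped, and the log2(FC) of -0.12 ± 0.08 (SE) did not pass (adjusted p 0.337), although it passed as lower with TPM scaling (-0.32, adjusted p 0.0182) and with quantile normalization (-0.24, adjusted p 0.0414). With a correction for exon length, which is 8703 bases for this gene in GENCODE v44, the sign turned and the value was 0.019 (adjusted p 0.918). Of its canonical transcript, 69.4% lies in exons of the overlapping gene ENSG00000286001 on the same strand, so how reads in those exons were counted bears on its level.

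*SDHB*, which carries the iron-sulfur clusters that receive the electrons, measured 42.6, 43.4 and 41.5 FPKM in the control libraries and 49.4, 43.99 and 54.6 FPKM in the case libraries. The case values were all higher, case replicate 2 only just, and the log2(FC) of 0.29 ± 0.10 (SE) did not pass (adjusted p 0.0927). *SDHC*, the other membrane anchor, had a log2(FC) of 0.04 ± 0.07 (SE), or -0.12 with the correction for exon length. That correction used its GENCODE v44 exon length of 1902 bases, while its FPKM was divided by 14160 bases, so the corrected value is uncertain. The log2 ratio of *SDHB* to *SDHA* was -0.18, -0.15 and -0.20 in the control libraries and 0.16, 0.11 and 0.42 in the case libraries. *SDHA* thus had the higher FPKM in every control library and *SDHB* in every case library. The difference of 0.41 in log2 ratio gave an exact two-sided permutation p of 0.1, the smallest that 3 against 3 libraries allow, and 0.5 after adjustment over the 10 shares and ratios examined. A ratio within a library does not depend on a single scaling factor per library, but it can depend on quantile normalization, which uses no such factor. It can also depend on exon length, which is 2445 bases for *SDHB* in GENCODE v44. From the fit corrected for length, an alternative chosen after seeing the data, the difference was 0.13. The median log2(FC) of the 4 complex II genes was 0.16, or -0.037 with TPM scaling, where that of all tested genes was -0.19.

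**Figure D3:**
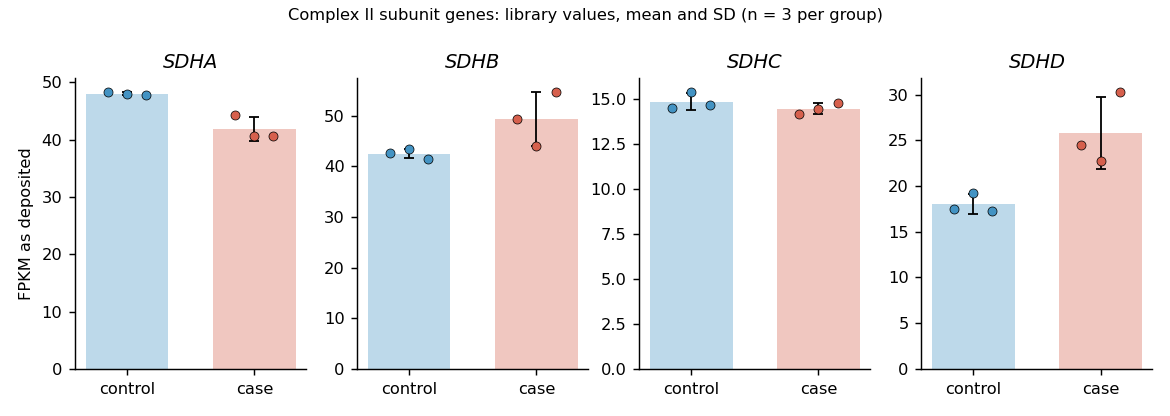
FPKM of *SDHA*, *SDHB*, *SDHC* and *SDHD* in each library (points), with the mean (bar, axis from 0) and SD (error bar) of 3 control and 3 case libraries. *SDHD* went from a mean of 18.0 to 25.8 FPKM and *SDHB* from 42.5 to 49.3, while *SDHA* went from 48.0 to 41.9 FPKM before scaling.

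In complex III, 9 of the 10 genes had a positive log2(FC), with a median of 0.28 (7 genes and 0.077 with TPM scaling), and 4 of the 10 had case libraries that all lay above the control libraries, beside 19.5% of all tested genes. *UQCRFS1*, which encodes the Rieske iron-sulfur protein that moves electrons towards cytochrome c1 (ENSG00000169021, chr19:29205320-29213151, minus strand), measured 51.1, 47.8 and 48.8 FPKM in the control libraries and 57.8, 57.2 and 65.0 FPKM in the case libraries. The groups did not overlap, and the log2(FC) was 0.36 ± 0.08 (SE), with an adjusted p of 0.0312 (limma). It passed in 10 of 16 other settings; it did not with TPM (0.16, adjusted p 0.141) or quantile scaling, with a correction for exon length (0.26, adjusted p 0.0542), without any 1 control library (adjusted p 0.103 to 0.149) or without case replicate 3 (0.0960). A processed copy, *UQCRFS1P1*, was listed at 4.41 to 8.68 FPKM, so some reads could belong to either.

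*CYC1*, the haem protein that reduces cytochrome c, measured 212, 198 and 229 FPKM in the control libraries and 245, 196 and 198 FPKM in the case libraries. *UQCRC1*, a core subunit of the matrix side, measured 134, 129 and 123 FPKM and 133, 118 and 125 FPKM, in the same order. Neither pattern separated the groups, and their log2(FC) values were 0.07 ± 0.12 and 0.03 ± 0.09 (SE).

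*UQCRHL* had the highest and *UQCRB* the lowest log2(FC) of complex III without a correction for exon length. *UQCRHL*, a near-identical copy of the hinge protein gene *UQCRH* whose reads cannot be cleanly separated from it, measured 2.19, 2.00 and 1.95 FPKM in the control libraries and 3.24, 1.97 and 2.69 FPKM in the case libraries. *UQCRB*, a small ubiquinone-binding subunit, measured 11.1, 11.7 and 13.4 FPKM and 11.3, 10.3 and 12.5 FPKM. Both overlapped between the groups. With that correction *UQCRB*, at 12600 exon bases in GENCODE v44, had a log2(FC) of 0.20 against -0.01 without it. *UQCRH* itself (166 ± 4.87 and 190 ± 10.1 FPKM), *UQCR11* and the core gene *UQCRC2* were higher in all case libraries after scaling, with adjusted p values of 0.0696 to 0.107 (limma).

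*CYCS*, the cytochrome c that shuttles between complexes III and IV, measured 85.6, 85.1 and 90.4 FPKM in the control libraries and 88.9, 97.2 and 105 FPKM in the case libraries. Case replicate 1 fell below control replicate 3 as deposited, and the groups separated only after scaling. The log2(FC) was 0.23 ± 0.08 (SE) and the adjusted p 0.0858. The log2 ratio of *CYCS* to *CYC1* overlapped between the groups (-1.29 ± 0.06 and -1.13 ± 0.29, SD, n = 3), and the difference of 0.16 became 0.36 in the fit corrected for exon length.

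No complex IV gene passed the test, beside 7.34% of all tested genes upregulated and 5.84% downregulated, so this count of 0 among 11 is near the background. Of the 11 tested, 10 had a positive log2(FC) (7 with TPM scaling). In 7 the unadjusted p was under 0.05 (16.8% of all tested genes were higher at that p), and 7 were higher in all case libraries after scaling (19.5% of all tested genes). Under other settings with all libraries 0 to 4 complex IV genes were upregulated. The 4 came with GC correction and a replicate block, where 1706 of all tested genes were upregulated. Limma-voom gave 3, beside 9.38% of all tested genes, and the fit without case replicate 2 gave 7, beside 13.4%. *COX4I1*, the regulatory subunit 4, measured 107, 99.7 and 103 FPKM in the control libraries and 135, 113 and 125 FPKM in the case libraries. *COX5A* measured 97.6, 99.7 and 101 FPKM in the control libraries and 112, 106 and 112 FPKM in the case libraries. Both were higher in every case library, with log2(FC) values of 0.34 ± 0.10 and 0.22 ± 0.07 (SE) and adjusted p values of 0.0562 and 0.0827. *COX5B*, a zinc-binding subunit, came nearest to passing at 0.41 ± 0.11 (adjusted p 0.0525).

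*COX6B1*, an intermembrane-space subunit and the most abundant of complex IV, measured 159, 147 and 160 FPKM in the control libraries and 193, 156 and 203 FPKM in the case libraries. Case replicate 2 fell among the control values before scaling. *COX8A*, the smallest subunit, had the highest log2(FC) of the complex at 0.63 ± 0.26 (SE, adjusted p 0.136), from 17.9, 17.3 and 24.7 FPKM to 41.1, 20.4 and 29.1 FPKM. Its groups overlapped, since control replicate 3 was above case replicate 2, and it rested on 157 to 348 reads over 507 exon bases. ENSG00000256100 covers 35.4% of its exons on the same strand. *COX7B*, at the lower end, measured 32.8, 34.4 and 36.6 FPKM in the control libraries and 31.3, 28.5 and 34.5 FPKM in the case libraries, with a log2(FC) of -0.06 ± 0.10. *NDUFA4*, which is also counted as a complex IV subunit but falls outside the naming rule, had a log2(FC) of 0.04 ± 0.10. The median of the 11 genes was 0.24, or 0.041 with TPM scaling, 0.094 with quantile normalization and 0.088 with a correction for exon length, which left differences of 0.24, 0.11 and 0.085 from all tested genes.

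Tissue-specific isoforms of complex IV stayed below the testing minimum. *COX4I2* and *COX8C*, the alternative forms of subunits 4 and 8, were above 0 in control replicate 1 only, on 2 reads and 1 read. *COX6B2*, known mainly from testis, measured 0.366, 0.351 and 0.332 FPKM in the control libraries and 0.220, 0.196 and 0.119 FPKM in the case libraries, on 7 to 26 reads. It was lower in every case library, and its share of summed *COX6B1* and *COX6B2* FPKM went from 0.225% ± 0.0165 to 0.0992% ± 0.0355 (SD, n = 3; exact permutation p 0.1, 0.5 adjusted). The muscle form *COX7A1* ranged from 0.172 to 0.892 FPKM with overlapping groups. *COX6A1* was measured at only 2.27 to 6.54 FPKM, and its copy *COX6A1P2* was listed higher, at 5.29 to 10.7 FPKM, so the level of this subunit is uncertain.

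All 17 tested complex V genes had a positive log2(FC), with a median of 0.24 (13 genes and 0.041 with TPM scaling), and 8 were higher in all case libraries after scaling, beside 19.5% of all tested genes. *ATP5PF*, coupling factor 6 of the peripheral stalk (ENSG00000154723, chr21:25716503-25735673, minus strand), measured 22.9, 20.7 and 20.8 FPKM in the control libraries and 29.2, 24.2 and 33.9 FPKM in the case libraries. The lowest case value, that of replicate 2, was still above the highest control value. The log2(FC) was 0.50 ± 0.13 (SE), a 1.42-fold increase with an adjusted p of 0.0454 (limma). It passed in 9 of 16 other settings and in 1 of 6 fits with a library left out, the one without case replicate 2. It did not pass with a correction for exon length (0.35, adjusted p 0.0669). *GABPA* and *JAM2* on the opposite strand overlap 37.3% of its exon bases (9.89% of its canonical transcript, by *GABPA*), and whether the counting used strand is not given in the sources used here.

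*ATP5MC2* is 1 of 3 genes whose mature product is the same c subunit of the proton-driven ring. It lies at chr12:53632726-53677408 on the minus strand (ENSG00000135390) and measured 45.5, 43.4 and 42.1 FPKM in the control libraries and 55.2, 50.4 and 52.1 FPKM in the case libraries. Every case value was higher, and the log2(FC) was 0.34 ± 0.09 (SE, adjusted p 0.0381, limma). It passed in 11 of 16 other settings, not with TPM (adjusted p 0.155) or quantile scaling, and neither without any 1 control library (0.113 to 0.152) nor without case replicate 3 (0.102).

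The sister genes gave less. *ATP5MC1* measured 62.9, 55.3 and 63.2 FPKM in the control libraries and 67.7, 52.6 and 69.7 FPKM in the case libraries. *ATP5MC3* measured 24.1, 23.5 and 22.5 FPKM and 26.1, 24.4 and 26.6 FPKM. The former overlapped between groups and the latter did not (log2(FC) 0.21 ± 0.08, SE, adjusted p 0.121). As shares of their summed FPKM, *ATP5MC1* held 47.4% ± 2.11 and 44.6% ± 2.92, *ATP5MC2* 34.3% ± 1.28 and 37.2% ± 2.23, and *ATP5MC3* 18.3% ± 0.831 and 18.2% ± 0.839 (SD, n = 3; exact permutation p 0.2 or more, 0.571 or more adjusted). The isoform shares overlapped between the groups for all 3 genes.

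*ATP5F1B*, of the catalytic head, measured 862, 875 and 784 FPKM in the control libraries and 833, 842 and 843 FPKM in the case libraries. *ATP5F1A*, the alpha subunit that alternates with it around the head, measured 39.8, 39.4 and 35.7 FPKM and 42.2, 43.6 and 45.2 FPKM. The beta subunit overlapped between the groups (log2(FC) 0.08 ± 0.08, SE) and the alpha subunit did not (0.27 ± 0.08, adjusted p 0.0574), and the difference between them was not tested. The enzyme holds equal numbers of both, yet their FPKM lay far apart, and the *ATP5F1A* value was divided by 10908 exon bases against 2322 for *ATP5F1B*, since all annotated exons entered the length.

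*ATP5IF1*, the inhibitor that stops the enzyme from running backwards, measured 64.4, 54.4 and 66.0 FPKM in the control libraries and 74.1, 64.4 and 68.2 FPKM in the case libraries. It had a log2(FC) of 0.24 ± 0.11 (SE, adjusted p 0.167), and its log2 ratio to *ATP5F1B* overlapped (-3.77 ± 0.22 and -3.61 ± 0.11, SD, n = 3). *ATP5PO*, the stalk subunit that confers oligomycin sensitivity, had the highest log2(FC) of the complex, 0.63 ± 0.22 (SE, adjusted p 0.0934). It measured 1.75, 1.15 and 1.79 FPKM in the control libraries and 2.87, 1.98 and 2.15 FPKM in the case libraries. The groups did not overlap, but the gene had only 69 to 160 reads per library and shares 63.8% of its canonical transcript with ENSG00000249209 and *LINC00649*. *ATP5ME* and *ATP5MGL* had at most 7 reads in any library and were not tested.

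The case libraries did not move alike. Relative to the control mean of each gene, the median over the 43 genes was 0.35 in case replicate 1, 0.08 in case replicate 2 and 0.32 in case replicate 3, and 42, 28 and 40 of the 43 genes were above that mean. In complex III the medians were 0.34, 0.00 and 0.37, and in complex IV 0.45, 0.08 and 0.33. The spread between replicates over the 43 genes (median SD of log2 values) was 0.0705 in the control and 0.168 in the case group, beside 0.0886 and 0.189 over all tested genes. Without case replicate 2, 26 of the 43 genes were upregulated, against 13.4% of the genes then tested. Without case replicate 3, none was, and 0.89% of all tested genes were. Without control replicate 1, 2 or 3 none was either, beside 0.558%, 0.404% and 0.5% of all tested genes, so these counts of 0 are near the background.

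Of the 13 subunits encoded by mitochondrial DNA, those of complexes III to V assemble with these nuclear partners and the others belong to complex I. The 13 as a set followed another order. Their median deviations were 0.48, 0.60 and 0.54 in case replicates 1, 2 and 3, and 9 of the 13 were upregulated, beside 7.34% of all tested genes. Case replicate 2, the lowest for the nuclear genes, was thus the highest by the median of the 13. Among those of complexes III to V it was the highest only in *MT-CYB* and *MT-CO1*. There *MT-CO2*, *MT-CO3* and *MT-ATP6* were highest in case replicate 3 and *MT-ATP8* in case replicate 1. *MT-ATP6*, the proton channel subunit of complex V, measured 1251, 1179 and 1171 FPKM in the control libraries and 1640, 1830 and 1879 FPKM in the case libraries, with a log2(FC) of 0.65 ± 0.08 (SE, adjusted p 0.00811, limma). For complex I, 8 of 33 tested nuclear subunits were upregulated and 1 was downregulated, beside 7.34% and 5.84% of all tested genes, with medians by case library of 0.42, 0.09 and 0.29. These comparisons share the control libraries with that of the nuclear genes.

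**Figure D4:**
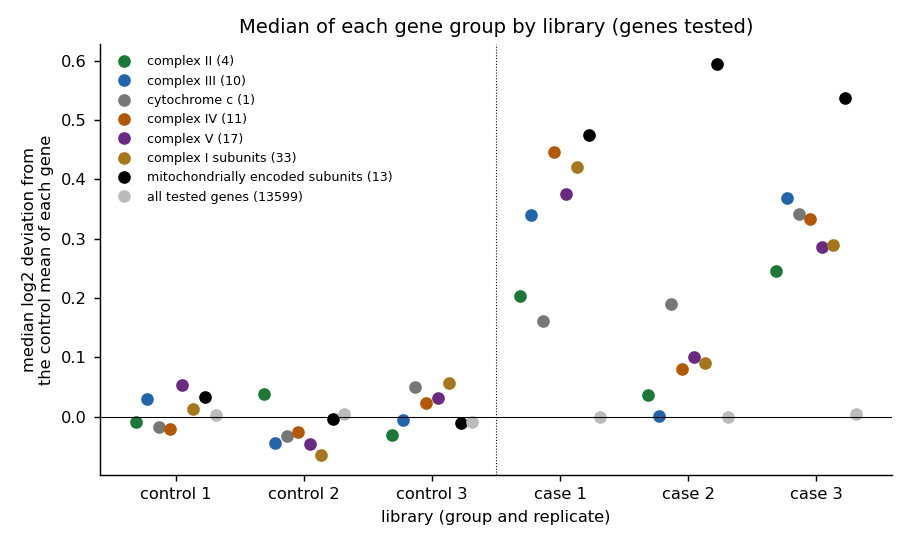
Median over the genes of each group of the log2 deviation from the control mean of the gene, in each of the 6 libraries; the number of genes tested is in parentheses. The 4 complexes lie between 0.20 and 0.45 in case replicate 1, at or below 0.10 in case replicate 2 and between 0.25 and 0.37 in case replicate 3, while the mitochondrially encoded subunits lie at 0.48 to 0.60; with TPM scaling all groups shift down.

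Further genes of the pathway gave mixed counts. In complex I, *NDUFB9*, an accessory subunit, measured 20.9, 18.6 and 20.99 FPKM in the control libraries and 30.0, 26.4 and 31.9 FPKM in the case libraries, and was upregulated (log2(FC) 0.62, adjusted p 0.0157, limma). The accessory subunit gene *NDUFA5* was downregulated, from 9.03, 10.6 and 11.2 FPKM to 6.20, 7.07 and 7.82 FPKM (log2(FC) -0.47, adjusted p 0.0357, limma). In both genes the groups did not overlap.

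Of 36 tested assembly factors of complexes II to V, 4 were upregulated and 0 downregulated, beside 7.34% and 5.84% of all tested genes, with a median log2(FC) of 0.19. At an unadjusted p under 0.05, 13 were higher and 3 lower, beside 16.8% and 16.2% of all tested genes. The share upregulated, 11.1%, was near the background. The 4 were *COX19* and *COA6*, which act in the copper supply of complex IV, *HCCS*, which attaches haem to cytochromes c and c1, and *TMEM70*, an assembly factor of ATP synthase. *COX19* measured 4.12, 3.12 and 4.05 FPKM in the control libraries and 6.23, 6.66 and 6.15 FPKM in the case libraries, without overlap (log2(FC) 0.82, adjusted p 0.0124, limma).

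Carriers and channels that serve ATP synthesis gave 3 upregulated genes of 7, beside 7.34% of all tested genes, with a median of 0.29. They were *VDAC2* and *VDAC3*, pores of the outer membrane, and *SLC25A5*, an exchanger of ADP for ATP. *VDAC2* measured 121, 123 and 119 FPKM in the control libraries and 152, 151 and 159 FPKM in the case libraries, which left a wide gap between the groups (log2(FC) 0.42, adjusted p 0.0150, limma).

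Of 8 other dehydrogenases that feed ubiquinone, the entry point shared with complex II, 1 was upregulated and 0 were downregulated, beside 7.34% and 5.84% of all tested genes, and the median was -0.15. At an unadjusted p under 0.05, 1 was higher and 3 lower, beside 16.8% and 16.2% of all tested genes, and 1 call among 8 genes is near the background. The upregulated gene was *SQOR*, which oxidizes hydrogen sulfide. It measured 14.1, 12.97 and 13.1 FPKM in the control libraries and 19.9, 17.8 and 23.2 FPKM in the case libraries, without overlap (log2(FC) 0.67, adjusted p 0.0161, limma). None of the 13 tested transcriptional regulators of respiration, such as *NRF1* and *GABPA*, passed the test (unadjusted p under 0.05 in 2 higher and 2 lower, beside 16.8% and 16.2% of all tested genes), which is near the background of 7.34% and 5.84% called, and their median was 0.01. *PKM*, the gene of the enzyme that TEPP-46 activates, measured 914 ± 20.7 and 846 ± 76.7 FPKM with a log2(FC) of -0.04 ± 0.10 (SE, adjusted p 0.821).

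The nuclear subunit genes differ from most genes in length and level, and both moved with the fold changes. The median exon length behind FPKM was 2509 bases over the 43 genes and 4361 over all tested genes, and the median level was 48.1 against 4.78 FPKM. Among all tested genes the median log2(FC) ran from 0.16 below 1500 bases to -0.17 from 6000 bases, and the genes below 1500 bases deviated by 0.25, 0.06 and 0.24 in case replicates 1, 2 and 3, an order like that of the subunit genes. The subunit medians lay above those of all genes in each length class, 0.29 against 0.16, 0.27 against 0.15, 0.22 against 0.02 and 0.04 against -0.17. The correction for length in the fit used GENCODE v44 exon lengths instead, which differ for some genes, such as *SDHC* (1902 against 14160 bases). With it, the median of the subunit genes was 0.15 and 3 of them were upregulated, beside 6.77% of all tested genes. These were *SDHD*, *ATP5MC2* and *ATP5F1A* (log2(FC) 0.45, adjusted p 0.0241), while *UQCRFS1* and *ATP5PF* no longer passed.

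By level, the 24 subunit genes of 20 to 100 FPKM had a median of 0.25 against 0.12 for all genes of that level. At 100 FPKM or more, the order turned. The 10 subunit genes there had a median of 0.22 against 0.24 for all 458 genes, and 0 of the 10 were upregulated against 28.6% of the 458. The part of length and level together in the shift of the subunit genes was not tested.

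**Figure D5:**
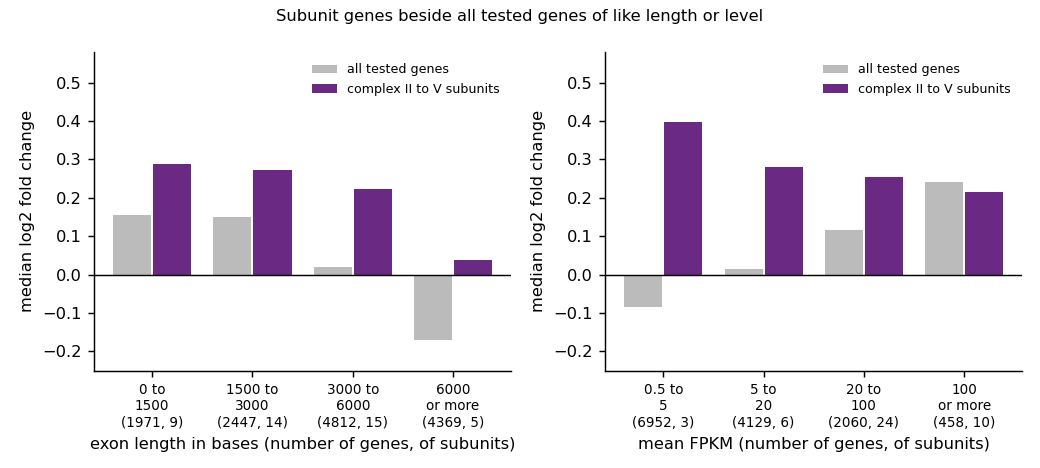
Median log2(FC), case minus control, of all tested genes (grey bars) and of the subunit genes (purple bars) in 4 classes of exon length and 4 of mean FPKM, with the numbers of genes and subunit genes under each class. The purple bars are the higher ones in every class except that of 100 FPKM or more, where they reach 0.22 against 0.24; with TPM scaling all bars shift down.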

How the data were processed

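Per the labels and the methods of the study, total RNA of 3 control and 3 case cultures was sequenced, reads were aligned to GRCh38.p13 with HISAT2 2.1.0, and genes were counted with HTSeq 0.6.0. The authors deposited FPKM per gene and library; the annotation release, strand setting and handling of shared reads are not given in the sources used here. Whole reads were recovered from the steps of the deposited FPKM values in all 27922 genes above 0 (tolerance 0.005 reads). Gene symbols were matched by Ensembl ID for 29063 of 29483 genes. The correction for exon length used GENCODE v44 lengths, which can differ from the lengths behind FPKM. Genes with a mean of at least 0.5 FPKM were tested with limma 3.58.1 (R 4.3.3) with an intensity trend on log2(FPKM divided by a median-of-ratios factor + 0.1), so fold changes of low genes are understated; the factors were 0.944 to 1.04. The fit was also run on simulated reads with the same dispersion in both groups. The case replicates here spread more than the control replicates, so nothing is drawn from that run. Subunit genes and lists were chosen with earlier results of these data known. Values per library are given for genes that passed, the most abundant gene and the highest and lowest log2(FC) of each complex, a list of core subunits, and of each further list the gene with the smallest p in each direction that passed. No column was without a sample (0).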

Additional observations from a re-analysis of the deposited data

How the results depend on the processing

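The 4 upregulated subunit genes became 0 with no filter on low values or without the intensity trend, 7 with a mean of at least 1 FPKM, 1 with TPM or quantile normalization, 1 with length correction and a replicate block, 13 with GC correction, 15 with GC correction and a replicate block, 9 with voom, and 0 to 26 when 1 library was left out. Downregulated subunit genes numbered 1 with TPM and 3 with quantile normalization, where *ATP5F1B* (-0.22, adjusted p 0.0417, limma) and *COX7C* (-0.20, adjusted p 0.0374) reversed. The medians of complexes II, IV and V moved to -0.037, 0.041 and 0.041 with TPM, which shifted all tested genes by -0.19. The medians of complexes II, III, IV and V were 0.084, 0.13, 0.094 and 0.13 with quantile normalization and 0.083, 0.19, 0.088 and 0.16 with length correction. Over all tested genes, 998 upregulated and 794 downregulated became 347 and 177 with no filter, 662 and 1124 unscaled, 383 and 2387 with TPM, 436 and 416 without the trend, 605 and 398 with block and length correction, 1949 and 1344 with GC correction, 1706 and 1134 with block and GC correction, 1275 and 1486 with voom, and 55 to 1813 and 14 to 1682 with 1 library left out. A mean of at least 1 FPKM gave 1088 upregulated and 946 downregulated of all tested genes, and quantile normalization gave 865 and 903. The other settings, including factors over all genes above 0 (chosen after seeing the data), gave 3 to 6 upregulated subunit genes. Leaving out a library or raising the filter changes the number of samples or genes tested; otherwise the cause was not tested.

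Replicate numbers were shared between the groups, but same-numbered libraries deviated together with correlations of only 0.06, 0.10 and -0.05. Those of differently numbered libraries ran from -0.18 to 0.12, so the number marks no closer pairing. The paper lists higher adapter rates for HG3 and HGTEPP1 than for the other libraries, and the part of this in the values was not tested. With the replicate as a block, 6 subunit genes were upregulated and 0 downregulated, and 848 and 762 of all tested genes.

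With 15363254 to 18634891 reads per library, genes such as *ATP5PO* (69 to 160 reads) or *COX6B2* (7 to 26 reads) have wide counting error, and 3 against 3 libraries cannot give an exact permutation p below 0.1.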

Other observations

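The table also listed 55 pseudogenes of the subunit genes, of which 8 had a mean of at least 0.5 FPKM. They are named here after their values were seen. *ATP5MC1P4*, a copy of the c subunit gene *ATP5MC1*, measured 0.730, 0.886 and 1.04 FPKM in the control libraries and 3.26, 1.70 and 4.72 FPKM in the case libraries. It was higher in every case library (log2(FC) 1.72 ± 0.34, SE, adjusted p 0.0218, limma), but on 6 to 32 reads, and *ATP5MC1* itself did not pass the test. Copies of *SDHA* were also measured, with *SDHAP3* at 74 to 141 reads and a log2(FC) of -0.30 ± 0.14 and *SDHAP1* at 136 to 241 reads and -0.27 ± 0.13, and *SDHAP4* at 66 to 96 reads and 0.00 ± 0.15. None of the 3 passed (adjusted p 0.186, 0.196 and 0.9975, limma), and their groups overlapped after scaling. As deposited, the case values of *SDHAP3* and *SDHAP1* were all below the control values, and those of *SDHAP4* overlapped. Reads of such copies and of their parent genes can be exchanged by the aligner, and how much was exchanged was not tested.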
